A study of Mus musculus with 6 samples.

Results

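The genes described here are 40 lysosomal genes, chosen by symbol and grouped by role: proteases, a protease inhibitor, glycosidases, lipid hydrolases, soluble cofactors and carriers, membrane proteins, proton pump subunits and the transcription factor Tfeb. All 40 were found among the 22899 genes measured in each library. RNA was sequenced from CD4+ T cells of the spleen of C57BL/6 mice, sorted by flow cytometry, with 3 libraries for lean mice on a normal diet and 3 for obese mice on a high-fat diet in which fat gave 60% of the kcal. Feeding of both groups generally began at an age of 6 to 8 weeks and lasted up to 4 months. The labels name no genetic modification, and leave unstated whether the libraries of a group are separate mice or pools. The p-values therefore reflect how far these libraries spread, which may be technical. Values are FPKM, a gene's fragments divided by its transcript length and by all mapped fragments, and values by library are given in the order of replicates 1, 2 and 3.

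Lysosomes are acidic organelles in which proteases, glycosidases and lipases break down material taken up from outside the cell or delivered by autophagy. A proton pump in the membrane, the V-ATPase, sets the low pH that most of these enzymes need, and heavily glycosylated membrane proteins such as LAMP1 and LAMP2 line the inner face. Macrophages and other phagocytes carry far more of this machinery than resting lymphocytes. Tfeb, a basic helix-loop-helix transcription factor, is known to bind an E-box (core letters CACGTG) in the promoters of many lysosomal genes.

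That E-box is shown here because the genes that hold it and those that do not had different counts of changed genes, described without a test at the end of the results. Windows from 250 bases before to 50 bases after each RefSeq transcript start (assembly GRCm38.p6) were at hand for 35 of the 40 genes, and not for Ctsb, Ctsh, Ctse, Asah1 and Atp6v1b2. The letters TCACGTG, on either strand, stood in the windows of 10 of the 35 genes (28.6%) and of 17 of 59 other lysosomal genes (28.8%). They stood in 4.29% of the 27025 genes with a window, and in 7.26% of the 8761 of these that were tested between the groups. These letters contain the shorter CACGTG, which 12 of the 35 (34.3%), 8.09% of the 27025 and 12.1% of the 8761 held. The stretches below are read 5′ to 3′ on the strand of the gene, with CACGTG in capitals. Lgmn was the one changed gene with the longer letters, at 1 of its 2 starts with a window, the one inside the annotated span of the gene and not at its outer end. A gene with several windows counted if any held the letters. Lamp1 had 4 E-boxes just before its start, the first beginning at −61 and the last at −15, and Mcoln1 and Ctsd had 2 each, 1 of the 2 in Ctsd lying at −245, upstream of the stretch printed.
Lgmn (chr12:102439093-102439172, minus strand): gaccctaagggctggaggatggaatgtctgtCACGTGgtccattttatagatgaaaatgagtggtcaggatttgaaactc
Lamp1 (chr8:13159081-13159160, plus strand): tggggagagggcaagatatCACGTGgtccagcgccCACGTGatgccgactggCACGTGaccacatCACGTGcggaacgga
Mcoln1 (chr8:3500439-3500518, plus strand): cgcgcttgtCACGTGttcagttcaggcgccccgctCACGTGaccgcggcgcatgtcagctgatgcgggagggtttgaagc
Ctsd (chr7:142387868-142387947, minus strand): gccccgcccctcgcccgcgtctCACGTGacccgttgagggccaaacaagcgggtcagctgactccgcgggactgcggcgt

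All 6 libraries carried the T cell transcripts Cd4 (279 to 363 FPKM) and Cd3e (346 to 455 FPKM), and none of the 8 CD4 T cell markers tested passed (limma; 0 at an unadjusted p under 0.05). Their log2 differences, from −0.21 to −0.01, were all below 0, while the median of all tested genes was 0.10. Their sum was 2859.6 to 3185.6 FPKM in lean and 2555.5 to 3050.5 FPKM in obese libraries. In 1 of the 8, Cd3d, every obese value lay below the lean ones, as in 6.15% of all tested genes. Transcripts of other cells were also there, with no listed marker at 0 in any library. The summed level of 18 macrophage and monocyte markers was 731 to 756 FPKM in lean and 1438 to 1651 FPKM in obese libraries. Of the 18, 15 rose (83.3%, against 5.77% of all tested genes). A large part of this sum was Ly6c2, which did not pass and whose cell source was not tested. It held the fold of the sum, 2.05 by the means, below that of most of the other markers in the list. Ly6c2 had 304 to 329 FPKM in lean and 243 to 332.5 FPKM in obese libraries, so the groups overlapped. The sum of 8 erythroid markers was 169 to 470 FPKM in lean libraries and 29005, 4343 and 23463 FPKM in the obese ones, and all 8 rose. Of 10 neutrophil markers 6 fell, with a sum of 547 to 787 FPKM in lean and 157 to 416 FPKM in obese libraries. Of 7 NK cell markers 3 fell, and of all tested genes 0.519%. The neutrophil and NK cell counts became 1 and 1 without lean 1, without lean 2 or with no filter on low values. The markers kept were Retnlg and Klra8. Of all tested genes 0.222%, 0.176% and 0.138% fell in these settings, in that order. Without obese 1 the neutrophil and NK cell counts were 4 and 1 (0.204% of all tested genes fell). Without obese 2 they were 4 and 4 (0.352%). Of 4 plasma cell markers Jchain rose, a call lost without any 1 lean library (BH-adjusted p up to 0.0897) and with no filter (0.0853), and no tested marker of B cells (8), dendritic cells (5 of 7 tested), platelets (5) or CD8 T cells (2) changed by limma. At an unadjusted p under 0.05 were 4 plasma cell markers, 2 B cell markers, 1 platelet marker and no dendritic or CD8 T cell marker. Such bulk values cannot tell fewer cells of a type from less RNA per cell. Each lysosomal result below was measured in these mixed libraries, and the part of the other cell types in it was not tested.

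Summed over these 40 genes, lysosomal transcripts were more abundant in the obese libraries. The summed level of the 40 genes was 3263, 3432 and 3140 FPKM in lean and 4684, 4569 and 4973 FPKM in obese libraries, so the lowest obese sum stood above the highest lean one. A few abundant genes weigh heavily in this sum. On average Lyz2 made up 11.5% of it in lean and 15.4% in obese libraries, and Ctsb 11.3% and 14.7%. Of the 40, 39 reached 1 FPKM or more in 3 or more libraries and were tested on log2(FPKM + 1), and Ctsk (0.13 to 0.39 FPKM), a cysteine protease of osteoclasts, did not. Of the 39 tested, 17 rose (43.6%) and 0 fell (limma, Benjamini-Hochberg-adjusted p under 0.05 over all 10788 tested genes), against 5.77% of all tested genes that rose, 0.519% that fell and 6.28% in either direction. Without the adjustment 24 of the 39 were higher and 1, Npc2, lower at a p under 0.05. The obese and lean libraries did not overlap in 27 genes, 26 higher in obese (66.7%; 25.4% of all tested genes) and 1, Npc2, lower (6.15% of all tested genes). The median log2 difference was 0.34 over the 39 genes and 0.10 over all tested genes. After median-of-ratios scaling both medians were lower, at 0.20 and −0.03, and 10 of the 39 rose (25.6%, with 4.02% of all tested genes). Without lean 1 the count was 10 (25.6%, with 2.8% of all tested genes), and without obese 1 it was 11 (28.2%, with 4.1%). With library weights it was 26 (66.7%), where 23.2% of all tested genes were called higher.

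**Figure D1:**
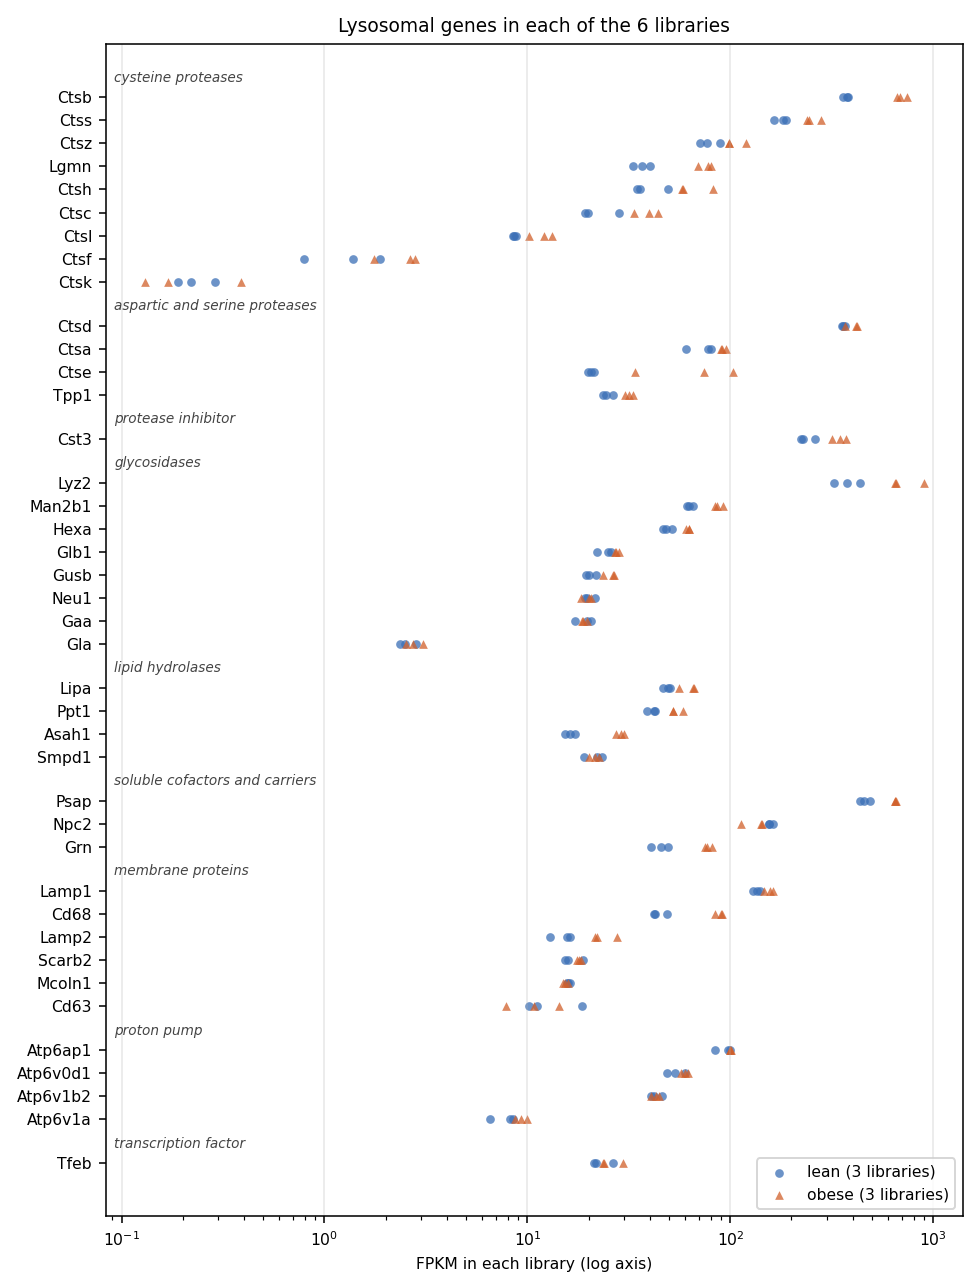
FPKM of the 40 lysosomal genes in each library (horizontal log axis), with 1 point per library, blue circles for lean and orange triangles for obese, genes grouped by role and ordered by their obese mean. Ctsb, Lyz2 and Psap stand apart between the groups, while the proton pump subunits and Mcoln1 lie close together in all 6 libraries.

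Cysteine proteases cut proteins in the lysosome and trim antigens and their class II chaperone, the invariant chain, and 5 of the 8 tested rose: Ctsb, Lgmn, Ctss, Ctsc and Ctsh. The summed level of the 9 genes of this role averaged 737 ± 11.2 FPKM over the lean and 1250.4 ± 66.9 FPKM over the obese libraries (SD, n = 3 per group). Ctsb (gene 13030, chromosome 14, 63122462 to 63145923, GRCm38), which encodes cathepsin B, stood at 374, 378 and 361 FPKM in lean and at 738, 666 and 682 FPKM in obese libraries. The 3 obese values were thus close to each other and all far above the lean ones. Its log2 difference was 0.90 ± 0.07 (SE; BH-adjusted p = 0.000479 by limma), a 1.87-fold difference of the group means. Lgmn (gene 19141, chromosome 12, 102394082 to 102439728) encodes legumain, an asparaginyl endopeptidase that activates other cathepsins. It stood at 33.2, 40.2 and 36.7 FPKM in lean and at 77.8, 69.1 and 80.2 FPKM in obese libraries, and its log2 value rose by 1.02 ± 0.09 (SE; BH-adjusted p = 0.000553 by limma). Obese 2 was the lowest of the obese libraries for both genes and still lay well above every lean library.

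Ctss, which encodes cathepsin S, the main protease of the invariant chain in professional antigen-presenting cells, was at 182, 163 and 187 FPKM in lean and at 244, 239 and 279 FPKM in obese libraries. The groups did not overlap, and the log2 difference was 0.52 ± 0.09 (SE; BH-adjusted p = 0.0122 by limma). Ctsc, whose product activates granule serine proteases, was at 19.9, 19.2 and 28.2 FPKM in lean and at 39.7, 33.6 and 44.0 FPKM in obese libraries. Lean 3 was the highest of the lean values and obese 2 the lowest of the obese ones, with a gap left between them. Ctsc rose by 0.79 ± 0.15 (SE; BH-adjusted p = 0.0212 by limma), a call that was lost without lean 1, lean 2, obese 1 or obese 3 (BH-adjusted p up to 0.0804) and with no filter on low values (0.0684). Ctsh, an aminopeptidase, had 34.8 to 49.5 FPKM in lean and 57.5 to 82.4 FPKM in obese libraries and rose by 0.71 ± 0.17 (SE; BH-adjusted p = 0.0466 by limma). Its call was lost without lean 1, lean 3, obese 1 or obese 3 (up to 0.135) and after median-of-ratios scaling (0.0837), quantile normalization (0.0714) or a replicate block (0.0595), with no filter (0.109), with a mean of at least 5 FPKM (0.0632), with a pseudocount of 5 (0.0535) and with no intensity trend (0.0583).

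Ctsl, which encodes cathepsin L, did not pass the test. It was at 8.59, 8.48 and 8.74 FPKM in lean and at 13.1, 10.2 and 12.1 FPKM in obese libraries, with obese 2 nearest to the lean values. The groups did not overlap, and the log2 difference was 0.41 ± 0.11 (SE; BH-adjusted p = 0.0612 by limma). It passed without obese 2 (BH-adjusted p = 0.0446, limma), with TPM scaling (0.0465) and with scaling that left out globin and immunoglobulin genes (0.0403). Ctsz, a carboxypeptidase, had non-overlapping groups of 70.8 to 89.0 and 97.9 to 119.9 FPKM, with a log2 difference of 0.41 (BH-adjusted p = 0.0616, limma). Ctsz passed with TPM scaling (0.0397) and with scaling that left out globin and immunoglobulin genes (0.032). The groups of Ctsf overlapped at 0.79 to 2.78 FPKM.

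Of the 4 aspartic and serine proteases, Ctse and Tpp1 rose. The best known aspartic protease of the lysosome, cathepsin D, is encoded by Ctsd (gene 13033, chromosome 7, 142375910 to 142387827), which did not pass the test. It was at 367.99, 360.33 and 352.77 FPKM in lean and at 419.43, 413.65 and 368.49 FPKM in obese libraries. Obese 3 was barely above lean 1, and the log2 difference was 0.15 ± 0.08 (SE; BH-adjusted p = 0.252 by limma). It passed with scaling that left out globin and immunoglobulin genes (0.0364) and with library weights (0.0352). The ratio of Ctsb to Ctsd within a library, which no scaling of the whole library can move, was 1.02, 1.05 and 1.02 in lean and 1.76, 1.61 and 1.85 in obese libraries. This ratio was chosen after its values were seen and is given with no test. Among the 13 proteases Ctsd made up 29.2% to 30.1% of the total FPKM in the lean and 19.4% to 23.7% in the obese libraries, while Ctsb took 30.4% to 30.6% and 35.9% to 39.1%.

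Ctse (gene 13034, chromosome 1, 131638314 to 131675507), which encodes cathepsin E, an intracellular aspartic protease that is not confined to lysosomes, had the largest difference of the 39 genes. It was at 21.3, 19.8 and 20.7 FPKM in lean and at 74.3, 34.0 and 103.2 FPKM in obese libraries, and rose by 1.59 ± 0.32 (SE; BH-adjusted p = 0.0249 by limma). The obese values were spread far more widely than the lean ones, with obese 2 the lowest. The erythroid marker sum was likewise lowest in obese 2 among the obese libraries, at 4343 FPKM against 29005 in obese 1 and 23463 in obese 3. That sum was highest in obese 1, while Ctse was highest in obese 3. Of the 39 tested genes, 20 were lowest in obese 2 among the obese libraries. The part of erythroid transcripts in the Ctse result was not tested. The call on Ctse was lost without any 1 of the lean libraries or obese 1 (BH-adjusted p up to 0.0866) and with no filter on low values (0.0854).

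Tpp1, a tripeptidyl peptidase, was at 26.3, 23.7 and 24.4 FPKM in lean and at 30.2, 31.8 and 33.1 FPKM in obese libraries. The groups were narrow and did not overlap, and the log2 difference was 0.34 ± 0.08 (SE; BH-adjusted p = 0.0402 by limma). Its call was lost without any 1 of the 6 libraries (BH-adjusted p up to 0.127). With median-of-ratios scaling it had a log2 difference of 0.20 (BH-adjusted p = 0.164), and it was also lost with quantile normalization (0.10), with no filter (0.0580) and with no intensity trend (0.0554). Ctsa, a carboxypeptidase that also protects Glb1 and Neu1 from degradation, was at 77.2, 80.04 and 60.4 FPKM in lean and at 90.2, 94.8 and 90.5 FPKM in obese libraries. Lean 3 was lower than the other lean libraries, and the groups did not overlap. The log2 difference of 0.35 ± 0.11 did not pass (SE; BH-adjusted p = 0.0913 by limma). Ctsa passed with TPM scaling (0.0396) and with scaling that left out globin and immunoglobulin genes (0.025).

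Cst3 encodes cystatin C, a secreted inhibitor of cysteine cathepsins, and rose. It was at 222, 262 and 229 FPKM in lean and at 316, 347 and 369 FPKM in obese libraries. The groups did not overlap, and the log2 difference was 0.53 ± 0.09 (SE; BH-adjusted p = 0.0129 by limma). The call was lost without lean 1 (BH-adjusted p = 0.0620) and with median-of-ratios scaling (0.0698).

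**Figure D2:**
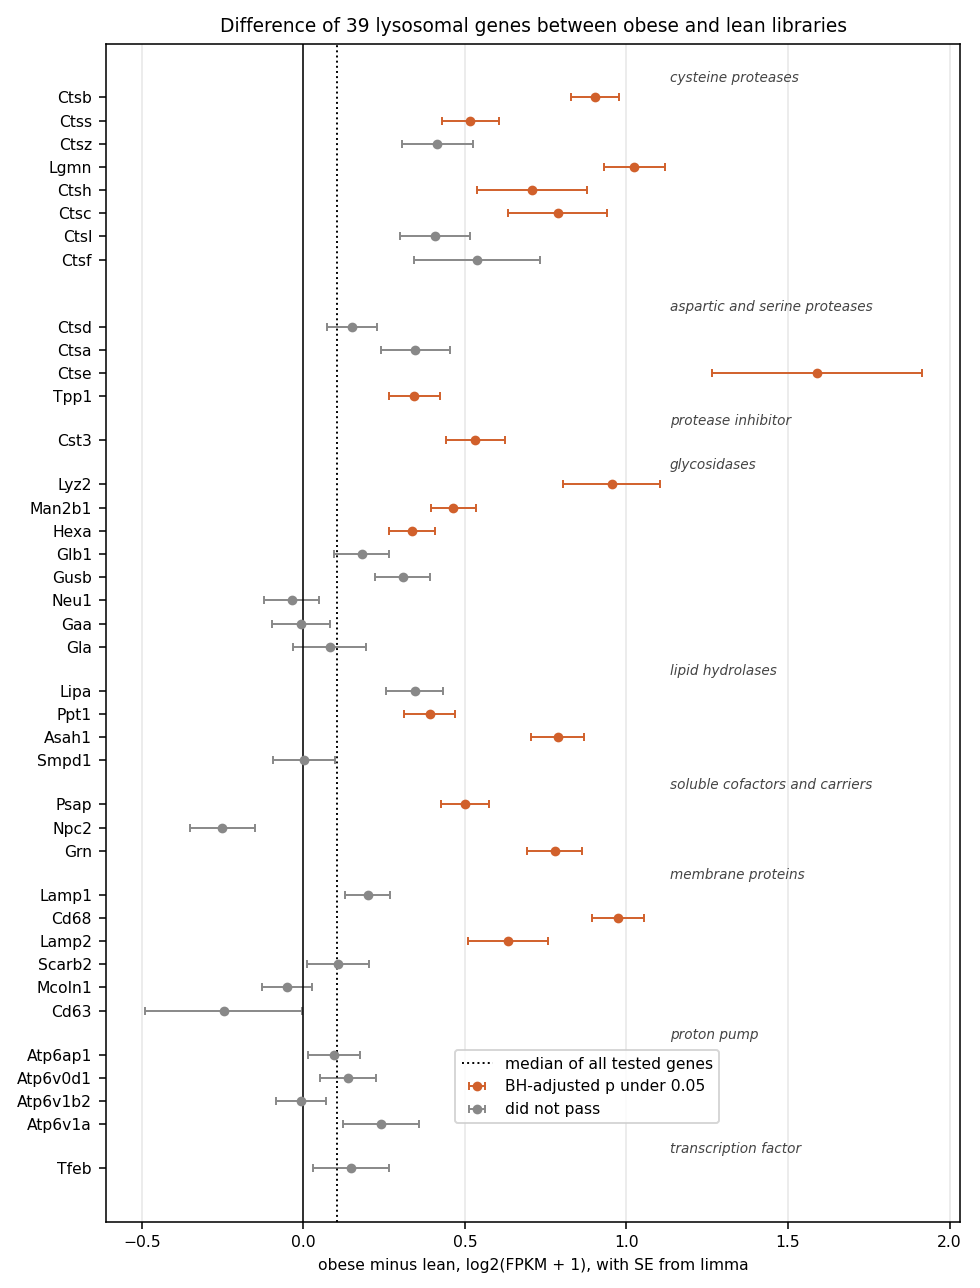
Log2 difference of the 39 tested genes between obese and lean libraries on log2(FPKM + 1), with SE from limma as bars, orange where the adjusted p was under 0.05, grey where not, and a dotted line at the median of all tested genes (0.10). Of the cysteine proteases 5 are orange, and of the 4 proton pump subunits none is.

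Glycosidases remove sugars from glycoproteins and glycolipids, and 3 of the 8 rose: Man2b1, Lyz2 and Hexa. Lyz2 (gene 17105, chromosome 10, 117277541 to 117282272), which encodes the bacterial cell wall hydrolase lysozyme of myeloid cells, was at 374, 434 and 323 FPKM in lean and at 653, 649.9 and 902 FPKM in obese libraries. Obese 3 stood above the other obese libraries, and the lowest obese value lay above the highest lean one. The log2 difference was 0.95 ± 0.15 (SE; BH-adjusted p = 0.00828 by limma). Reads of Lyz2 can be shared with its near copy Lyz1, which was at 29.2 to 37.7 FPKM in lean and at 55.5 to 80.9 FPKM in obese libraries, so the level of each copy is uncertain.

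Man2b1, the lysosomal alpha-mannosidase, was at 62.8, 65.1 and 60.9 FPKM in lean and at 83.8, 91.5 and 86.2 FPKM in obese libraries. Values within each group were close, and the log2 difference was 0.46 ± 0.07 (SE; BH-adjusted p = 0.00633 by limma), with the call lost after median-of-ratios scaling (0.0693). Hexa, the alpha subunit of beta-hexosaminidase, was at 46.4, 51.6 and 47.9 FPKM in lean and at 62.3, 62.3 and 60.3 FPKM in obese libraries. It rose by 0.34 ± 0.07 (SE; BH-adjusted p = 0.0283 by limma). Without lean 1 or any 1 obese library the call was lost (BH-adjusted p up to 0.112), as it was after median-of-ratios scaling (0.236), quantile normalization (0.0676) and with no intensity trend (0.0530).

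The other 5 glycosidases did not pass. Gusb, the beta-glucuronidase, was at 20.1, 19.4 and 21.7 FPKM in lean and at 23.5, 26.3 and 26.7 FPKM in obese libraries, without overlap, and its log2 difference was 0.31 ± 0.09 (SE; BH-adjusted p = 0.0722 by limma). Gusb passed with scaling that left out globin and immunoglobulin genes (0.0438). Glb1, the lysosomal beta-galactosidase, had groups that did not overlap (21.98 to 25.8 and 26.9 to 28.3 FPKM). The groups of Neu1, a sialidase (18.4 to 21.6 FPKM), of Gaa, the acid alpha-glucosidase (17.2 to 20.6 FPKM), and of Gla, the alpha-galactosidase (2.35 to 3.05 FPKM), overlapped. Their log2 differences were between −0.04 and 0.08.

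Lipid hydrolases free fatty acids, sterols and sphingoid bases from membranes and lipoproteins, and Asah1 and Ppt1 rose out of 4. Asah1 (gene 11886, chromosome 8, 41340646 to 41397644), the acid ceramidase, was at 16.2, 15.4 and 17.1 FPKM in lean and at 28.8, 27.4 and 30.1 FPKM in obese libraries. Both groups were tight and far apart, with a log2 difference of 0.79 ± 0.08 (SE; BH-adjusted p = 0.000969 by limma). Ppt1, a thioesterase that removes palmitate from proteins, was at 42.4, 38.6 and 42.1 FPKM in lean and at 52.2, 52.1 and 58.3 FPKM in obese libraries. The 2 groups stood apart, and the log2 difference was 0.39 ± 0.08 (SE; BH-adjusted p = 0.0236 by limma). Its call was lost without lean 1, lean 2, obese 1 or obese 3 (BH-adjusted p up to 0.0842) and with median-of-ratios scaling (0.0947).

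Lipa, the acid lipase that hydrolyses cholesteryl esters and triglycerides, was at 49.5, 46.5 and 50.7 FPKM in lean and at 66.4, 65.5 and 55.5 FPKM in obese libraries. Obese 3 was the obese library nearest to the lean ones. The log2 difference of 0.34 ± 0.09 did not pass (SE; BH-adjusted p = 0.0551 by limma). Lipa passed without obese 3 (0.0258), with TPM scaling (0.0312) and with scaling that left out globin and immunoglobulin genes (0.0193). Smpd1, the acid sphingomyelinase, was at 21.97, 23.3 and 19.1 FPKM in lean and at 21.5, 22.6 and 20.1 FPKM in obese libraries. These groups lay within each other, and the log2 difference was 0.00054 ± 0.10 (SE; BH-adjusted p = 0.998 by limma).

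Of the soluble cofactors and carriers, Psap and Grn rose and Npc2 did not pass. Psap (gene 19156, chromosome 10, 60277628 to 60302600), the precursor of the saposins that present sphingolipids to their hydrolases, was at 455, 488 and 435 FPKM in lean and at 655, 644 and 650.0 FPKM in obese libraries. The obese values lay close together and all above the lean ones, with a log2 difference of 0.50 ± 0.07 (SE; BH-adjusted p = 0.00579 by limma). After median-of-ratios scaling its call was lost (0.0783). Grn (gene 14824, chromosome 11, 102430507 to 102436809), which encodes progranulin, was at 45.3, 49.1 and 40.7 FPKM in lean and at 77.0, 74.97 and 81.1 FPKM in obese libraries. The 2 groups stood apart, and the log2 difference was 0.78 ± 0.09 (SE; BH-adjusted p = 0.00130 by limma). Npc2, a soluble carrier that takes cholesterol out of the lysosome, was at 155, 162 and 154 FPKM in lean and at 144, 142 and 112 FPKM in obese libraries. It was the one gene whose obese values were all below the lean ones, and its log2 difference of −0.25 ± 0.10 did not pass (SE; BH-adjusted p = 0.163 by limma).

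Membrane proteins of the lysosome divided into 2 that rose, Cd68 and Lamp2, and 4 that did not pass. Cd68 (gene 12514, chromosome 11, 69664213 to 69666170), a LAMP-like glycoprotein widely used as a macrophage marker, was at 42.3, 48.9 and 42.3 FPKM in lean and at 84.3, 90.7 and 89.5 FPKM in obese libraries. The obese mean was 1.98 times the lean mean, with a log2 difference of 0.97 ± 0.08 (SE; BH-adjusted p = 0.000482 by limma). Lamp2 was at 16.3, 12.9 and 15.6 FPKM in lean and at 22.1, 21.5 and 27.8 FPKM in obese libraries. Obese 3 was the highest and lean 2 the lowest, and the log2 difference was 0.63 ± 0.13 (SE; BH-adjusted p = 0.0222 by limma), with the call lost without lean 2 (0.0755) and with no filter (0.0628).

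Lamp1 (gene 16783, chromosome 8, 13159161 to 13175338), the other main LAMP, was at 129, 140.1 and 135 FPKM in lean and at 162, 156 and 147 FPKM in obese libraries. The groups did not overlap, and the log2 difference of 0.20 ± 0.07 did not pass (SE; BH-adjusted p = 0.126 by limma). With scaling that left out globin and immunoglobulin genes it passed (0.0262), as it did with library weights (0.00663). Scarb2, the receptor that carries glucocerebrosidase to the lysosome, was at 15.4, 15.8 and 18.7 FPKM in lean and at 17.9, 18.3 and 17.5 FPKM in obese libraries. Its groups overlapped through lean 3, with a log2 difference of 0.11 ± 0.09 (SE; BH-adjusted p = 0.498 by limma). Mcoln1, a cation channel that releases lysosomal calcium, had 14.9 to 16.2 FPKM over the 6 libraries, and Cd63, a tetraspanin, had 7.84 to 18.5 FPKM, with lean 1 the highest. The groups of both overlapped.

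Neither the proton pump nor Tfeb passed the test. None of the 4 pump subunits passed, and none of the 4 had an unadjusted p under 0.05 (limma). Atp6v1a, the catalytic subunit, was at 8.23, 6.57 and 8.53 FPKM in lean and at 8.73, 9.27 and 9.98 FPKM in obese libraries. The groups were next to each other without overlap, with lean 2 the lowest, and the log2 difference was 0.24 ± 0.12 (SE; BH-adjusted p = 0.229 by limma). Atp6v0d1, of the membrane sector, was at 53.5, 59.5 and 48.8 FPKM in lean and at 57.0, 61.6 and 59.4 FPKM in obese libraries, with a log2 difference of 0.14 ± 0.09 (SE; BH-adjusted p = 0.334 by limma). For the accessory protein Atp6ap1 the values were 99.5, 97.5 and 84.2 FPKM in lean and 99.5, 100.01 and 100.3 FPKM in obese libraries, with a log2 difference of 0.10 ± 0.08 (SE; BH-adjusted p = 0.474 by limma). Both genes had overlapping groups, with lean 3 the lowest library of each.

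Atp6v1b2, a subunit of the cytosolic sector, was at 42.0, 40.7 and 46.3 FPKM in lean and at 42.9, 40.8 and 44.4 FPKM in obese libraries, with a log2 difference of −0.01 ± 0.08 (SE; BH-adjusted p = 0.961 by limma). Summed over the 4 subunits the pump was at 188 to 204 FPKM in lean and at 208 to 214 FPKM in obese libraries, a fold of 1.07 by the means, against 1.70 for the cysteine proteases. Tfeb was at 21.3, 26.3 and 21.7 FPKM in lean and at 23.7, 23.7 and 29.7 FPKM in obese libraries. Its groups overlapped through lean 2, with a log2 difference of 0.15 ± 0.12 (SE; BH-adjusted p = 0.459 by limma).

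**Figure D3:**
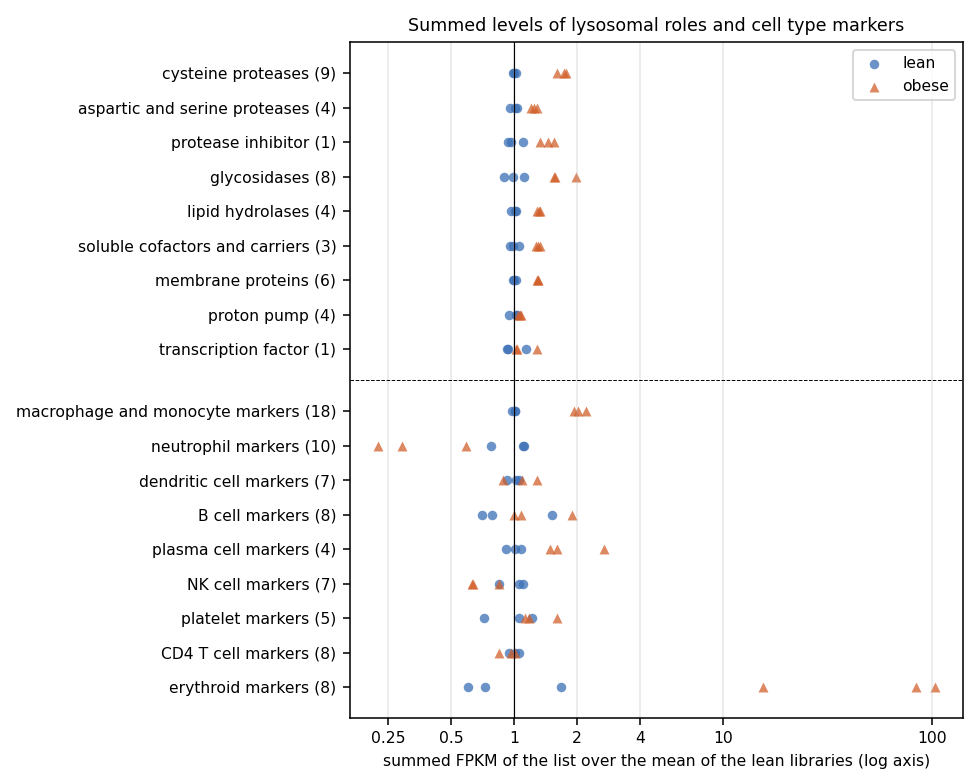
Summed FPKM of each lysosomal role and each marker list in every library, divided by the mean of the 3 lean libraries (horizontal log axis), with the number of genes in brackets, blue circles for lean and orange triangles for obese. The cysteine proteases of the obese libraries lie between 1.6 and 1.77 and the macrophage and monocyte markers between 1.92 and 2.21, while the erythroid markers lie between 15.5 and 103. Ly6c2, which did not pass, is a large part of the macrophage and monocyte sum.

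Most of the 18 macrophage and monocyte markers were also higher in the obese libraries. Adgre1, which encodes F4/80, was at 8.41, 9.42 and 11.0 FPKM in lean and at 33.5, 25.8 and 24.9 FPKM in obese libraries, and Csf1r, the receptor for the growth factor of macrophages, at 33.4 to 44.1 and 89.1 to 114.8 FPKM. C1qa, a chain of complement C1q, was at 56.0 to 61.3 FPKM in lean and at 141 to 192 FPKM in obese libraries. The median log2 difference of the 18 markers was 1.49, above that of every lysosomal role (up to 0.62, in the cysteine proteases, among roles with several genes). Within the obese group the marker sum was highest in obese 1 (1651 FPKM) and lowest in obese 3 (1438 FPKM), but its members Ly6c2 (332.5 FPKM) and Ccr2 (11.4 FPKM) were highest in obese 3. The sums of the dendritic cell (39.4 FPKM), B cell (931 FPKM) and plasma cell markers (1357 FPKM) were also highest in obese 3. Among the obese libraries, so were those of the neutrophil (416 FPKM) and CD8 T cell markers (79.6 FPKM). Sums of the NK cell and CD4 T cell markers were highest in obese 2, and those of the platelet and erythroid markers in obese 1. Of the 17 risen lysosomal genes 12 were highest in obese 3, 3 in obese 2 and 2 in obese 1. With 3 libraries the order within a group is a description.

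**Figure D4:**
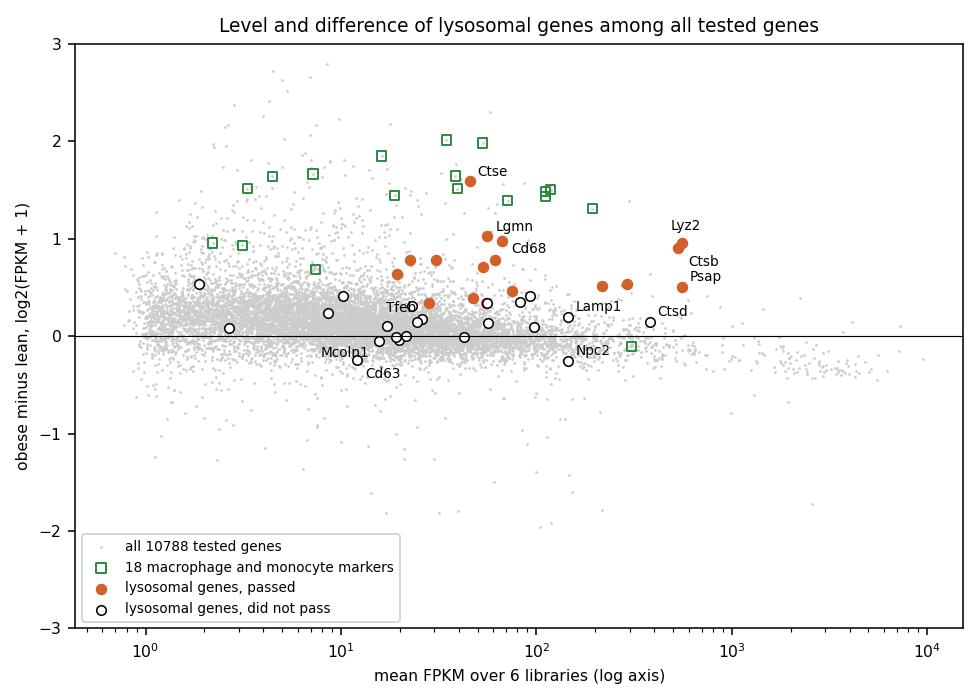
Log2 difference between obese and lean libraries (vertical axis) against the mean FPKM over the 6 libraries (horizontal log axis) for all 10788 tested genes in grey, the lysosomal genes that passed in orange and that did not in open circles, and 18 macrophage and monocyte markers as green squares; 12 genes lie beyond the vertical axis limits of 3 in either direction. The orange points lie at mean levels from 19.4 FPKM (Lamp2) upwards, and none of the genes below that level passed.

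Beyond the 40, another 82 genes of the lysosome were examined, of which 81 were tested and the transcription factor Mitf (0.25 to 0.53 FPKM) was not. Of the 81, 8 rose (9.88%, against 5.77% of all tested genes) and 0 fell, while 25 were higher and 1 lower at an unadjusted p under 0.05 (limma). The groups did not overlap in 34 of the 81 with obese higher (42.0%), against 66.7% of the 39 genes above and 25.4% of all tested genes, and the median log2 difference was 0.12. Without lean 2 the count was 5 (6.17%, with 2.77% of all tested genes). With library weights it was 23 (28.4%), near the 23.2% of all tested genes. The summed level of the 82 was 3816 to 4106 FPKM in lean and 3967 to 4137 FPKM in obese libraries, so these groups overlapped, unlike the sums of the 40.

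Among the other lipid hydrolases and cofactors 3 of 8 rose. Acp2, the lysosomal acid phosphatase, had 5.18 to 5.89 FPKM in lean and 10.9 to 13.7 FPKM in obese libraries, with a log2 difference of 0.98 ± 0.11 (SE; BH-adjusted p = 0.00163 by limma). Pla2g15, a phospholipase, was at 8.21 to 10.2 and 16.0 to 21.8 FPKM (BH-adjusted p = 0.00487, limma). Naaa, an acid amidase, was at 8.39 to 9.83 and 14.1 to 18.8 FPKM (BH-adjusted p = 0.0141, limma), and lost its call without lean 2 (0.0573).

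In each of the remaining sublists at most 1 gene rose. Sort1, a sorting receptor that carries progranulin and other cargo to the lysosome, was at 1.99, 1.95 and 2.46 FPKM in lean and at 5.72, 5.17 and 5.86 FPKM in obese libraries, with a log2 difference of 1.07 ± 0.11 (SE; BH-adjusted p = 0.00103 by limma). Cpq, a carboxypeptidase, rose by 0.72 (BH-adjusted p = 0.00350, limma). Of 14 further proton pump subunits Atp6v0a1 rose, by 0.90 ± 0.18 (SE; BH-adjusted p = 0.0227 by limma), at 4.46 to 5.71 FPKM in lean and 9.15, 8.46 and 14.2 FPKM in obese libraries. The call on this subunit was lost without any 1 lean library (BH-adjusted p up to 0.0764), after quantile normalization (0.0615) and with no filter (0.0747). Laptm4a, a membrane protein, rose by 0.32 (BH-adjusted p = 0.0239, limma), lost without any 1 library other than lean 3 (up to 0.0930) and after median-of-ratios scaling (0.221). None of 11 tested nutrient-sensing genes and regulators passed (1 at an unadjusted p under 0.05), the smallest p being that of Tfec, a relative of Tfeb, with a log2 difference of 0.66 ± 0.18 (SE; BH-adjusted p = 0.0700 by limma).

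The letters TCACGTG, searched for after the levels were known, stood mostly before genes that did not pass. Of the 10 lysosomal genes that held them (Atp6v0d1, Atp6v1a, Ctsa, Ctsd, Gaa, Gla, Glb1, Lamp1, Lgmn and Mcoln1), Lgmn alone rose, against 12 of the 24 tested genes with a window that did not. The median log2 difference was 0.17 with the letters and 0.40 without. Of the other lysosomal genes 0 of 17 with the letters rose and 5 of 41 without. Over all tested genes with a window 2.99% of 636 with the letters and 5.67% of 8125 without rose, with medians of 0.11 and 0.10. The 5 genes with no window, of which 4 rose, entered neither count. A match is a description of letters, and whether Tfeb was bound there was not measured.

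**Figure D5:**
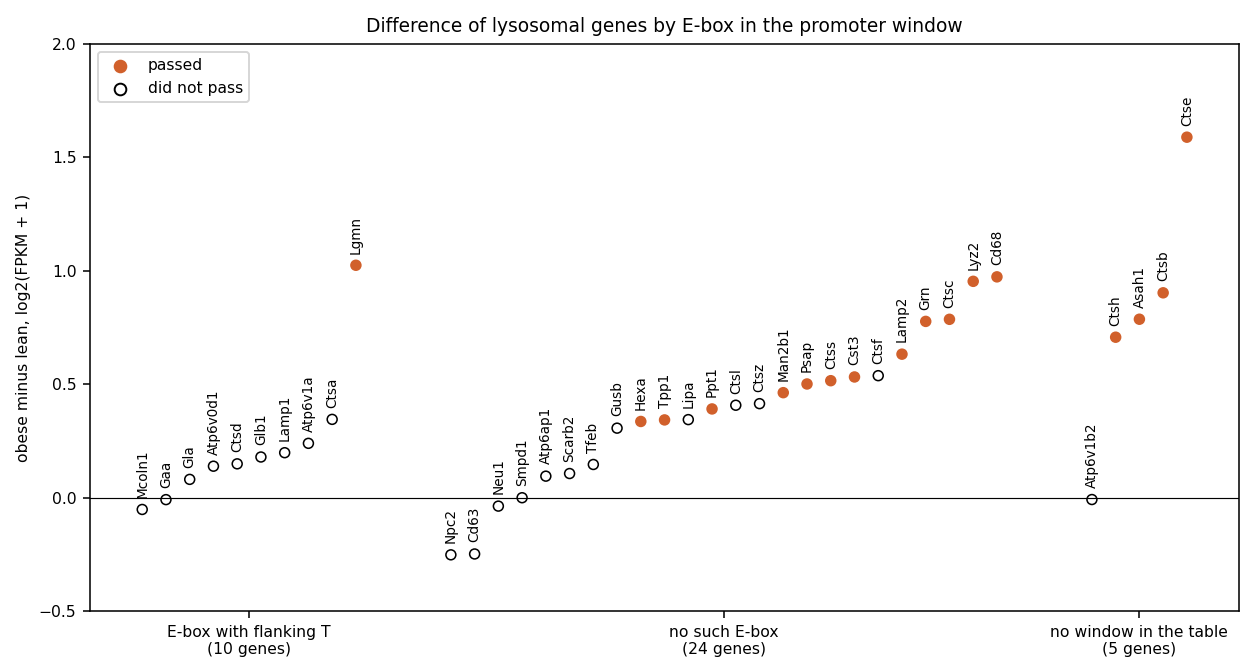
Log2 difference of the 39 tested lysosomal genes between obese and lean libraries, split by whether the promoter window held the E-box with a flanking T (10 genes), did not (24) or was not in the table (5), in orange where the test was passed and open where it was not. In the first group Lgmn is the one orange point, and the other 9 lie at or below 0.35.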

How the data were processed

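The authors deposited, for each of 6 libraries, 1 table of FPKM values with a gene number and symbol per row. Per the submitters' processing notes, Bowtie and RSEM were used with the builds GRCm38 and mm10. Their versions and settings, the annotation, the strandedness and any filters were not given in the sources used here. Whole reads could not be recovered from low FPKM values, so no count test was run, depth is unknown and precision is given by the spread between libraries. Because each library is scaled to its own mapped fragments, abundant transcripts such as globins can lower all other FPKM values.

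Libraries were grouped by the diet and state in the labels. Genes that reached 1 FPKM or more in 3 or more libraries were tested on log2(FPKM + 1) with limma 3.58.1 in R 4.3.3 (2-sided, intensity trend, group as the sole term). BH-adjusted p is a p-value with Benjamini-Hochberg adjustment over all 10788 tested genes, called under 0.05. Differences are obese minus lean, and the log2(FPKM + 1) scale understates those of low genes. Exact permutation tests of single genes were not used, since 3 libraries against 3 cannot give a p below 0.10.

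In each role the 4 genes with the smallest adjusted p, and 10 fixed genes, are given in every library, the others by range. Of the other lysosomal genes up to 3 changed genes of each sublist are named. One gene that this rule names is not reported here. The genes, lists, alternatives and promoter letters were chosen with earlier results of these data known. All 40 genes were matched by gene number to RefSeq GRCm38.p6 for coordinates. The test was also run on simulated libraries with independent noise for each gene, which does not cover shifts that move many genes together. Alternatives were other pseudocounts (0.1 and 5), filters, scalings and variance models, library weights, a replicate block and each library left out in turn.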

Additional observations from a re-analysis of the deposited data

How the results depend on the processing

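Each result was recomputed under 17 alternatives. All 17 risen genes kept a positive log2 difference in every one, and Ctsb, Ctss, Lgmn, Lyz2, Asah1, Grn and Cd68 passed in every one. Brackets in the next sentences give the share of all tested genes called higher, 5.77% at first. The 17 became 10 after median-of-ratios scaling (4.02%), 12 with no filter (1.98%), 14 with quantile normalization (2.98%) and 14 with no intensity trend (5.83%). They became 21 with TPM scaling (6.55%), 24 with scaling without globin and immunoglobulin genes (8.79%) and 26 with library weights (23.2%). With 1 library left out they became 10 to 16, being 10 without lean 1 (2.8%) and 11 without obese 1 (4.1%). Of the 22 that were not called, 10 passed some alternative: Ctsf, Ctsl, Ctsz, Ctsd, Ctsa, Gusb, Lipa, Lamp1 and Scarb2 as higher and Cd63 as lower. None fell except Cd63 with library weights (1 gene, log2 difference −0.82), and none with 1 library left out (0 in each). The median of 0.34 became 0.41 with TPM scaling, 0.20 with median-of-ratios scaling, 0.30 with a pseudocount of 5, 0.28 with quantile normalization, 0.45 with scaling without globin and immunoglobulin genes, and 0.33 to 0.36 with 1 library left out. It stayed 0.22 to 0.32 above the median of all tested genes, which median-of-ratios scaling moved from 0.10 to −0.03.

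Over all genes 622 higher and 56 lower calls became 434 and 173 with median-of-ratios scaling, 322 and 112 with quantile normalization, 2507 and 609 with library weights, 293 and 35 with a mean of at least 5 FPKM, and 344 and 24 with no filter. Scaling without globin and immunoglobulin genes gave 948 higher, and leaving out 1 library gave 299 to 601 higher (302 without lean 1, 299 without lean 2) and 19 to 97 lower (lean 1 out, 24; lean 2 out, 19; lean 3 out, 97; obese 1 out, 22). The 8 other lysosomal genes that rose became 23 with library weights (28.4%, with 23.2% of all tested genes). They became 13 without globin and immunoglobulin genes (16.0%, with 8.79%) and 5 to 9 with 1 library left out. The 5 were without lean 2 (6.17%, with 2.77%). Lower calls among them, 0 at first, became 3 with library weights and 0 to 1 with 1 library left out.

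Same-numbered libraries had correlations of their deviations of 0.03, 0.06 and 0.19, so the numbers were not taken to pair the samples. With the replicate number as a block, 866 genes (8.03% of those tested) were higher and 149 lower. Of the 39 lysosomal genes 16 rose, Ctsh being lost.

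Differences near 0 changed sign in genes that were not called. With median-of-ratios scaling these were Ctsd (−0.0016), Gla (−0.028), Smpd1 (−0.14), Scarb2 (−0.036), Atp6v0d1 (−0.0098) and Atp6ap1 (−0.055). With quantile normalization they were Gla (−0.18), Smpd1 (−0.093) and Scarb2 (−0.0092). With TPM scaling they were Gaa (0.052), Neu1 (0.023), Mcoln1 (0.0075) and Atp6v1b2 (0.054), and without globin and immunoglobulin genes Gaa (0.094), Neu1 (0.066), Mcoln1 (0.050) and Atp6v1b2 (0.098). Library weights gave Neu1 a value of 0.039. With 1 library left out Gaa ranged from −0.080 to 0.045, Neu1 from −0.067 to 0.012, Smpd1 from −0.077 to 0.059, Cd63 from −0.44 to 0.00042 and Atp6v1b2 from −0.045 to 0.046. The cause of these changes was not tested. Depth is unknown, so no limit from counting error can be set on low genes such as Ctsf and Gla.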
